A study of Mus musculus with 4 samples.

Results

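The 10 genes described here are the sterol sensors Scap, Insig1, Insig2, Srebf1 and Srebf2, the liver X receptors Nr1h2 and Nr1h3, and the sterol and phospholipid efflux genes Abca1, Abcg1 and Pltp. They were chosen by symbol, and all 10 were found among the 27998 genes of the files. Single-nucleus RNA was counted in 4 pooled hippocampal libraries, 1 per genotype, from B6 mice at 9 months: P301S/EKO (7 hippocampi), P301S (8), EKO (7) and WT (7). P301S names a human tau transgene with that amino acid change, EKO names loss of Apoe, and P301S/EKO mice carry both. The transgene's promoter and line are not given in the labels, and by its title the study deals with neurodegeneration linked to tau. Its other 2 genotypes were not analysed here. With 1 pooled library per genotype there is no replicate error, so no difference between genotypes was tested and no p-value is given.

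Cells sense cholesterol in the endoplasmic reticulum. SCAP binds the precursors of the SREBP transcription factors and carries them to the Golgi when sterols are low, where they are cleaved into active form, while INSIG proteins hold the SCAP complex back when sterols are high. SREBP2, made from Srebf2, mainly drives genes of cholesterol synthesis and uptake, and SREBP1, made from Srebf1, mainly drives genes of fatty acid synthesis. The liver X receptors LXRα (Nr1h3) and LXRβ (Nr1h2) are activated by oxysterols and switch on Abca1, Abcg1, Pltp and Srebf1, so a loaded cell exports sterol. In the brain, astrocytes make much of the cholesterol carried on apoE particles, and ABCA1 loads lipid onto apoE.

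Abca1 and Srebf1 are both known LXR targets, and Insig1 is a known SREBP target, so their promoters are shown. The sequences are the 250 bases before the annotated start, on the gene's strand, from RefSeq on GRCm38.p6. Windows were matched for 9 of the 10 genes (15 windows); Abcg1 is named only. Capitals mark 4 motifs searched on both strands: a DR4-like LXR element (GGTNA, 5 bases of any kind, GGTNA), a sterol regulatory element (TCACNCCAC), an E-box (CACGTG) and an NF-Y box (CCAAT).
Abca1, chr4:53159896-53160145, minus strand: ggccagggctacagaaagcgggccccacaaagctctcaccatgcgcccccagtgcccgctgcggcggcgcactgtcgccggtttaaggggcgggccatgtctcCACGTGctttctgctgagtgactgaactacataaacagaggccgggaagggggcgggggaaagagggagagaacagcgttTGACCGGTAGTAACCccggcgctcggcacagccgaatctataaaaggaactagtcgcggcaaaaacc
Srebf1, chr11:60210472-60210721, minus strand: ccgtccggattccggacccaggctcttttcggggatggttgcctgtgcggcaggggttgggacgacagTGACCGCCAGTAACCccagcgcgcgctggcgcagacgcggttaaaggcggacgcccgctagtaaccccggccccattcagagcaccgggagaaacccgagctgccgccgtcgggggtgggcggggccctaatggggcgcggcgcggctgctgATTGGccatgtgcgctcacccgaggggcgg
Insig1, chr5:28071162-28071411, plus strand: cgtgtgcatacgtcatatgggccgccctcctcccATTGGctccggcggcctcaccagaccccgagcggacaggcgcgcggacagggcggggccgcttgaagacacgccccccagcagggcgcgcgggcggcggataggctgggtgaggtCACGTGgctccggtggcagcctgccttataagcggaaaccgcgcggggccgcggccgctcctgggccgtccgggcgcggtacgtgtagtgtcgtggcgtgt
The DR4-like letters were found in 2 of the 9 genes. In Abca1 they read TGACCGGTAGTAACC, starting at base 184 of the window. In Srebf1 they read TGACCGCCAGTAACC, starting at base 69 of the third of its 3 windows. The same letters occur in 0.621% of the 32851 promoter windows of that length. The E-box is in Abca1, Insig1 and Scap and in 6.02% of all windows. The NF-Y box is in 5 of the 9 genes and in 33.8% of all windows. The SRE letters are in none of the 15 windows and in 1.05% of all windows, and this says only that these letters are not in these stretches. GC boxes (GGGCGG), not marked, are in 7 of the 9 genes and in 32.7% of all windows. A match describes the letters and is not shown to be a site.

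The files held 3156 to 6767 barcodes and 8369762 to 14251675 UMIs per library, and 2860 to 5274 nuclei were kept. The kept nuclei had a median of 1421 UMIs in P301S/EKO, 2142 in P301S, 1444 in EKO and 1899.5 in WT, so both libraries without Apoe were the shallower ones. Apoe, the check of the labels, stood at 19.6 CPM in P301S/EKO, 6402 CPM in P301S, 16.4 CPM in EKO and 1932 CPM in WT. Pairs of libraries shared 19 to 69 barcode sequences, none with the same UMI total. The EKO library stood apart in holding the pituitary transcripts Gh (3519 UMIs) and Prl (1484 UMIs), against 0 to 6 UMIs in each other library, and in having 0 choroid-plexus-like nuclei of 5199. Nuclei outside neurons also held neuronal RNA: mixed nuclei, those with more than 50% of the CA1 median share of neuronal UMIs, made up 48.9% to 79.0% of microglia-like nuclei. In oligodendrocyte-like nuclei they made up 54.6% to 67.5%, in oligodendrocyte-precursor-like nuclei 15.9% to 56.3%, and in endothelial-like nuclei 7.75% to 31.3%. In astrocyte-like nuclei they made up 2.99% in P301S/EKO, 6.61% in P301S, 1.5% in EKO and 20.1% in WT.

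Levels below are UMI counts scaled to a total of 1000000 in a class of a library (CPM), and a ratio is 1 such level over another. Intervals are 95% and hold counting error of the UMIs only. Levels over all nuclei or all neurons also move with the share of each class. Dentate-granule-like neurons made up 18.7% of nuclei in P301S/EKO, 5.52% in P301S, 26.0% in EKO and 12.7% in WT. Microglia-like nuclei made up 6.45% in P301S/EKO, 11.3% in P301S, 2.67% in EKO and 4.09% in WT. A pair of a gene and a class was measured when the 2 libraries held at least 20 UMIs of the gene and at least 40 nuclei of the class each, and it is called higher or lower from 1.5-fold on. Nr1h3 was measured in no comparison, and in oligodendrocyte-precursor-like nuclei Scap alone was measured. A pair could also pass the minimum mainly through the library where the gene is high, so counts of calls describe the pairs measured and not all 100.

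P301S nuclei stood at higher Abca1 and Srebf1 and lower Insig1 than WT nuclei across neuronal and non-neuronal classes, though not always by 1.5-fold. That fold was passed in 6 of 7 classes measured for Abca1, 7 of 9 for Srebf1 and 5 of 9 for Insig1. Of 76 pairs measured, 19 were higher and 10 lower, 19 being 13 of the Abca1 and Srebf1 pairs, 3 of Abcg1 and 3 of Pltp. Over all genes and classes 16.9% of pairs were higher and 9.49% lower. P301S/EKO nuclei were lower than P301S nuclei in 19 of 73 pairs and higher in 12, beside 17.3% lower and 8.36% higher over all genes. EKO nuclei differed from WT nuclei in 6 pairs upward and 10 downward of 76, beside 9.52% and 12.4% over all genes. P301S/EKO nuclei differed from EKO nuclei in 8 pairs upward and 6 downward of 65, beside 10.9% and 8.68%. The last 2 comparisons thus have shares near the background for the 10 genes as a whole. The counting interval excluded a ratio of 1 in 14 of the 19 higher and 5 of the 10 lower pairs of P301S over WT, and in 10 of the 19 lower and 7 of the 12 higher pairs of P301S/EKO over P301S.

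**Figure D1:**
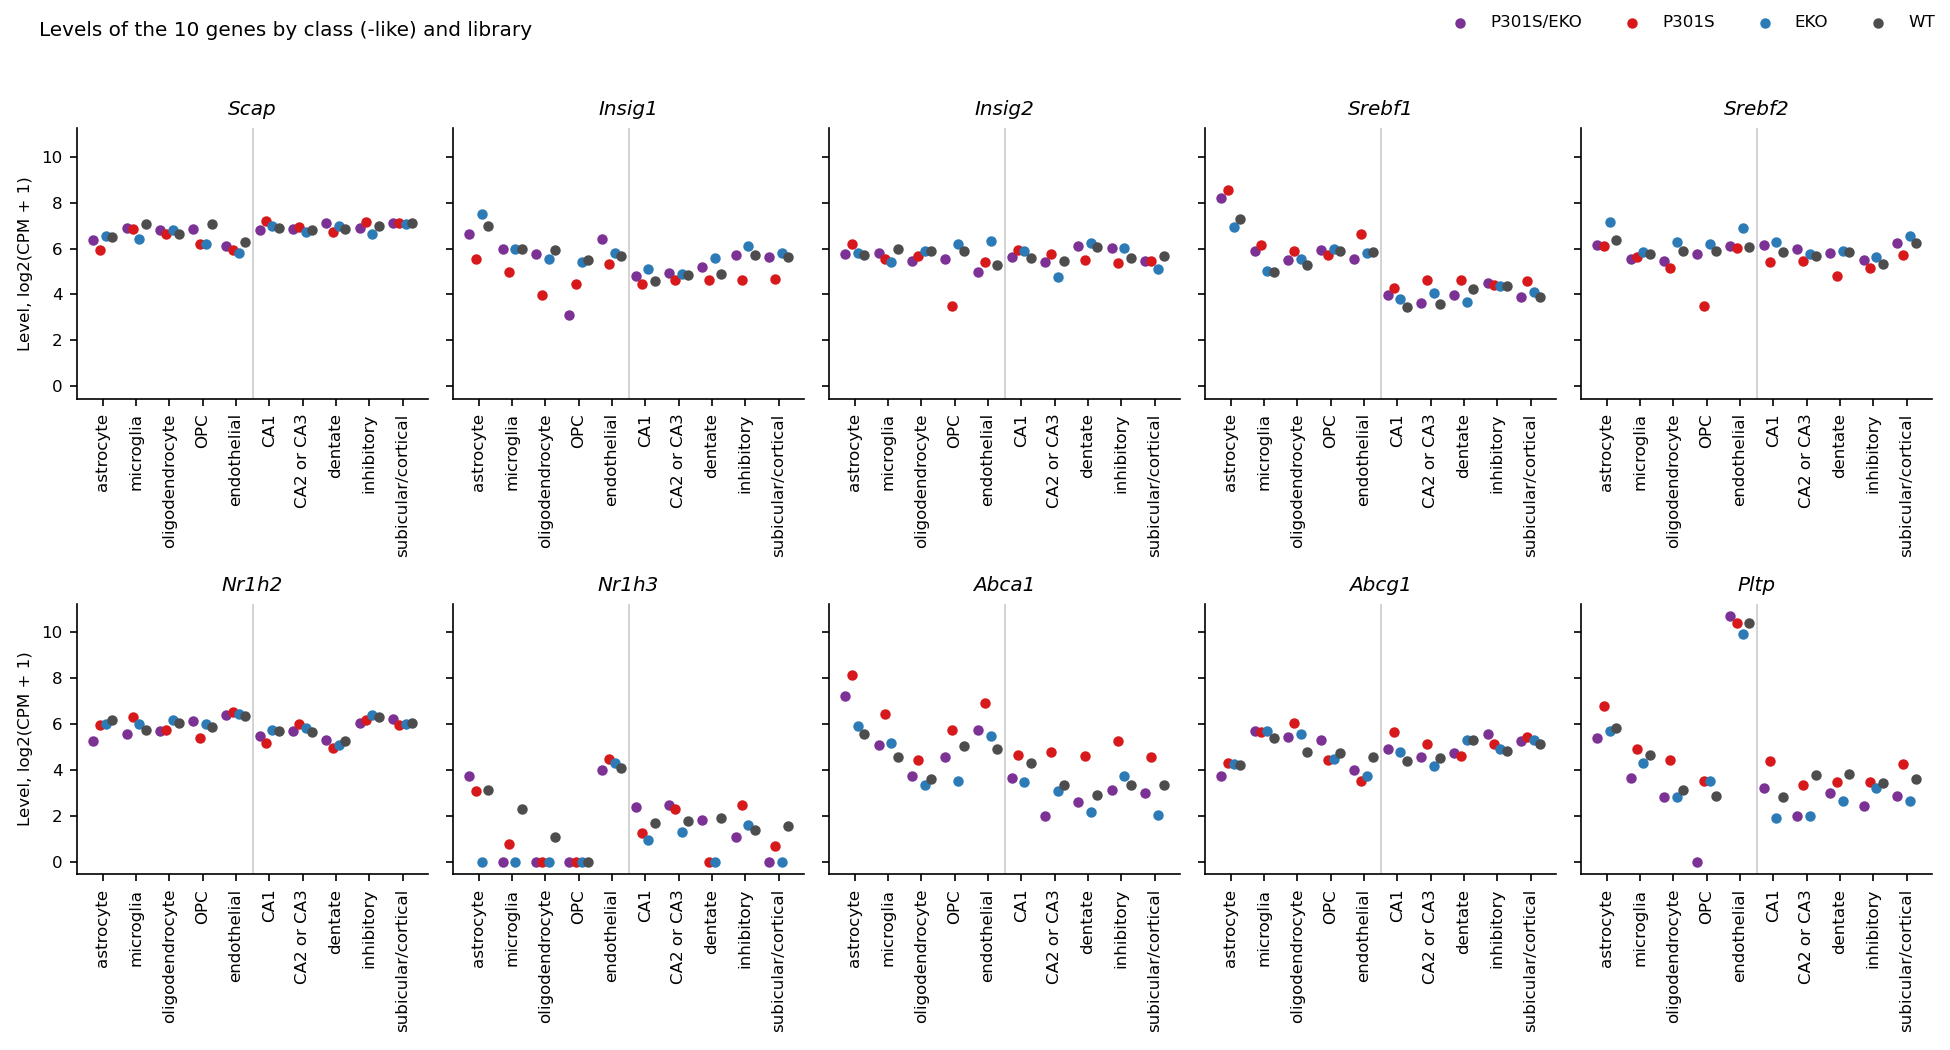
Level of each of the 10 genes as log2(CPM + 1) (vertical axis) in 10 named classes (horizontal axis, OPC for oligodendrocyte-precursor-like), 1 point per library in the order P301S/EKO, P301S, EKO, WT, with non-neuronal classes left of the grey line. Srebf1, Insig1 and Abca1 are highest in astrocyte-like nuclei of all 4 libraries and Pltp in endothelial-like nuclei, while Scap and Nr1h2 are spread over all classes.

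Scap, the escort of the SREBPs, was even across genotypes. Over all nuclei it stood at 122 CPM in P301S/EKO, 124 CPM in P301S, 116 CPM in EKO and 120 CPM in WT. It was highest in subicular-or-cortical-like neurons in 3 of 4 libraries (131 to 139 CPM) and lowest by median in endothelial-like nuclei (55.4 to 76.6 CPM). No neuronal class, and neither astrocyte-like nor endothelial-like nuclei, held a called difference of Scap in any of the 4 comparisons. The called pairs were few: microglia-like nuclei at 85.2 CPM in EKO and 134 CPM in WT (ratio 0.634, 0.403 to 0.964), and oligodendrocyte-precursor-like nuclei, which held 15 UMIs in P301S/EKO, 7 in P301S, 7 in EKO and 21 in WT.

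Insig1, which retains SCAP in the endoplasmic reticulum and is itself an SREBP target, was highest in astrocyte-like nuclei of every library. There it stood at 98.7 CPM in P301S/EKO (24 UMIs), 45.5 CPM in P301S (12), 183 CPM in EKO (40) and 127 CPM in WT (66). P301S was the lowest library and EKO the highest. The P301S over WT ratio was 0.358 (0.176 to 0.668), and the P301S/EKO over P301S ratio was 2.17 (1.04 to 4.76). P301S/EKO over EKO gave 0.539 (0.311 to 0.917), and EKO over WT, at 1.44, stayed within 1.5-fold. The share of astrocyte-like nuclei with an Insig1 UMI, each nucleus thinned to 1000 UMIs and shallower ones left out, was 6.19% of 97 in P301S/EKO, 1.65% of 121 in P301S, 13.6% of 66 in EKO and 11.97% of 259 in WT. The thinned shares rest on 6, 2, 9 and 31 nuclei with a UMI, in the same order. Shallower nuclei left out were 104 in P301S/EKO, 0 in P301S, 134 in EKO and 24 in WT. Unthinned shares were 9.95% in P301S/EKO, 8.26% in P301S, 13.5% in EKO and 19.1% in WT. Without mixed nuclei the astrocyte-like class was not the highest in P301S/EKO or P301S. In P301S/EKO it stood at 102 CPM beside 104 CPM in endothelial-like nuclei. In P301S it stood at 42.9 CPM on 10 UMIs, beside 45.4 CPM on 2 UMIs in oligodendrocyte-precursor-like nuclei.

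The low Insig1 of P301S was also seen outside astrocyte-like nuclei. All 9 measured classes had a P301S over WT ratio below 1, and 5 passed 1.5-fold. Inhibitory-like neurons stood at 24.0 CPM in P301S and 51.2 CPM in WT (ratio 0.469, 0.294 to 0.732). Subicular-or-cortical-like neurons stood at 24.8 CPM in P301S and 49.3 CPM in WT (0.503, 0.344 to 0.722). Oligodendrocyte-like nuclei held 5 UMIs in P301S and 54 in WT (0.243, 0.0760 to 0.604), and without mixed nuclei 1 and 10 UMIs. Microglia-like nuclei stood at 30.2 CPM in P301S and 62.7 CPM in WT (0.481, 0.317 to 0.722), but without mixed nuclei they held 10 UMIs in P301S and 1 in WT, a ratio of 2.86. Their thinned share with an Insig1 UMI was 4.69% in P301S/EKO, 4.97% in P301S, 7.02% in EKO and 4.23% in WT, so P301S was not the lowest there. Of the 9 classes measured in P301S/EKO over P301S, 9 had a ratio above 1 and 7 passed 1.5-fold, among them inhibitory-like neurons at 52.4 CPM in P301S/EKO (2.19, 1.36 to 3.55). These 2 comparisons share the P301S library. EKO over WT had 1 called class, dentate-granule-like neurons, with 47.3 CPM in EKO and 28.9 CPM in WT (1.64, 1.07 to 2.57).

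Insig2, the other INSIG gene, lay at 51.7 CPM in P301S/EKO, 48.9 CPM in P301S, 51.4 CPM in EKO and 51.7 CPM in WT over all nuclei. Its class medians ran only between 40.3 CPM and 68.0 CPM, with dentate-granule-like neurons at the top. In P301S over WT 1 class was called, dentate-granule-like neurons on 13 P301S and 72 WT UMIs (0.655, 0.333 to 1.19). In P301S/EKO over P301S inhibitory-like neurons stood at 64.4 CPM in P301S/EKO and 41.0 CPM in P301S (1.57, 1.07 to 2.32). In EKO over WT subicular-or-cortical-like neurons stood at 33.8 CPM in EKO and 50.8 CPM in WT (0.664, 0.485 to 0.902), and CA2-or-CA3-like neurons at 26.1 CPM in EKO and 43.4 CPM in WT (0.603, 0.391 to 0.915). Microglia-like nuclei were also lower (0.654, 0.330 to 1.201). Endothelial-like nuclei were higher, with 80.0 CPM in EKO and 38.3 CPM in WT on 13 and 17 UMIs (2.09, 0.933 to 4.57), and 6 of the 9 classes lay above 1.

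**Figure D2:**
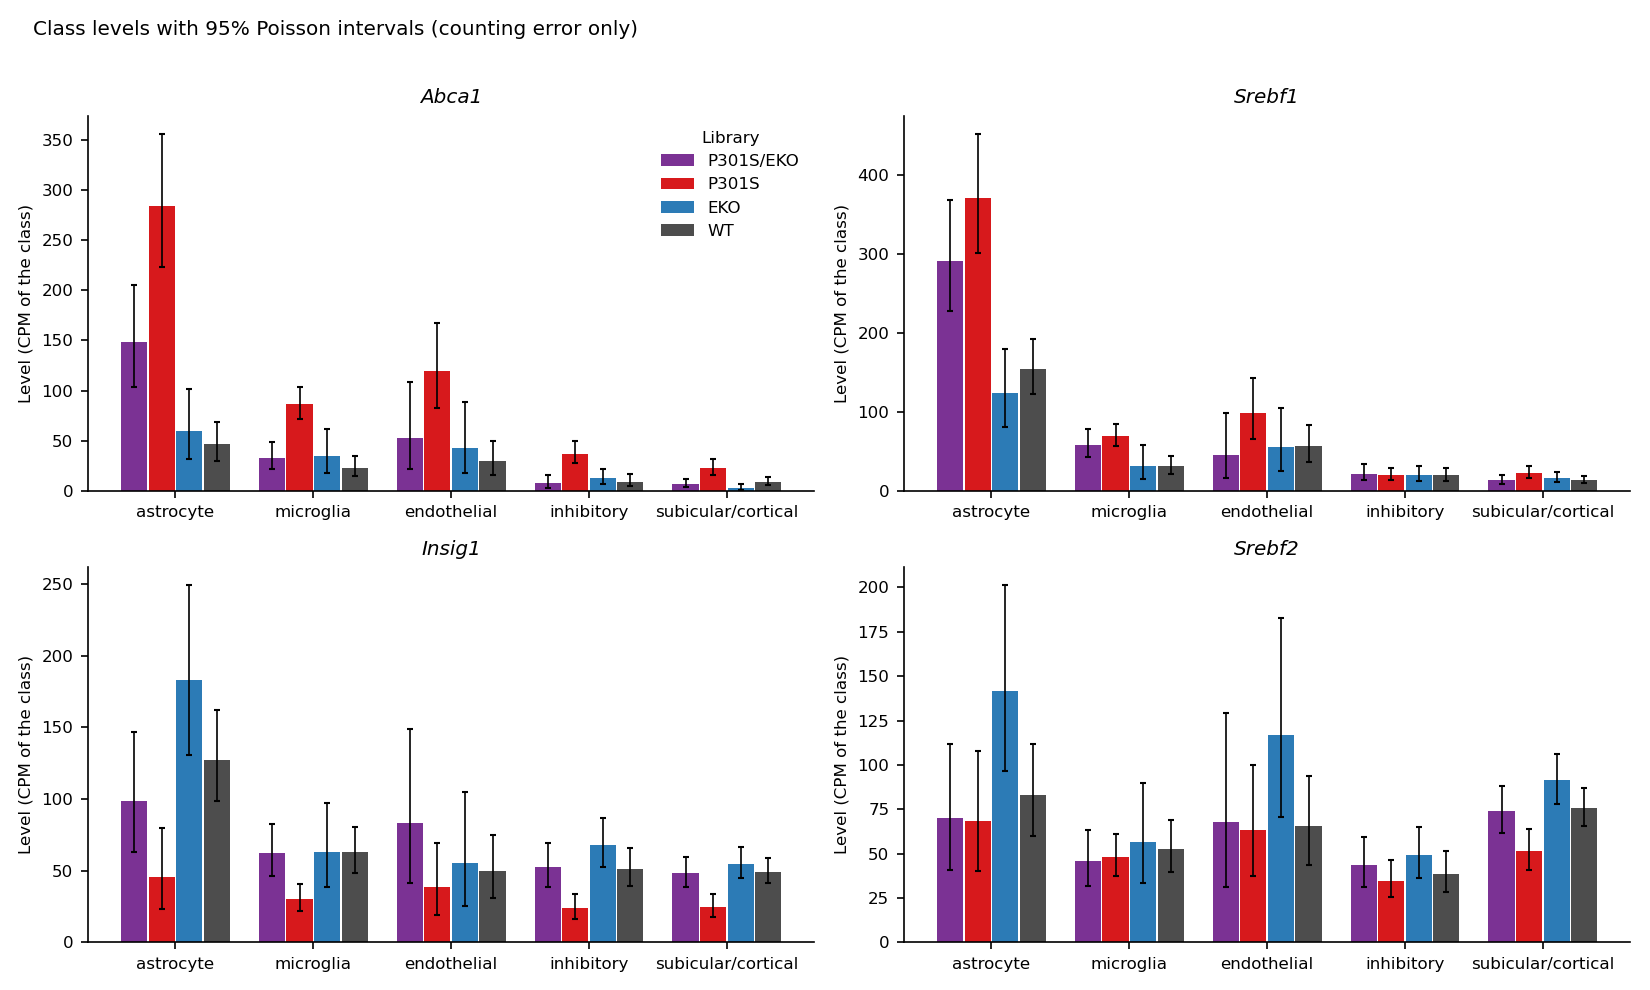
Levels in CPM (vertical axis) of Abca1, Srebf1, Insig1 and Srebf2 in 5 classes (horizontal axis), bars for the libraries P301S/EKO, P301S, EKO and WT from left to right, with 95% Poisson intervals of the UMI counts. In astrocyte-like nuclei Abca1 reaches 284 CPM in P301S and 46.3 CPM in WT, while Insig1 stands at 45.5 CPM in P301S and 127 CPM in WT.

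Srebf1 was an astrocyte-enriched gene in all 4 libraries. In astrocyte-like nuclei it stood at 292 CPM in P301S/EKO (71 UMIs), 372 CPM in P301S (98), 123 CPM in EKO (27) and 154 CPM in WT (80). Both libraries with the tau transgene were thus above both without it. In 3 of the 4 libraries the astrocyte-like interval lay apart from that of oligodendrocyte-precursor-like nuclei, next in the order at a median of 59.3 CPM. The neuronal classes had medians of 13.5 CPM to 19.97 CPM and did not differ from their neighbours in the order beyond counting error. P301S/EKO over EKO in astrocyte-like nuclei was 2.36 (lower limit 1.5, upper limit 3.83), and P301S/EKO over P301S was 0.786 and within 1.5-fold. The thinned share of astrocyte-like nuclei with a UMI was 30.9% in P301S/EKO, 25.6% in P301S, 15.2% in EKO and 13.9% in WT. In dentate-granule-like neurons, a class with little Srebf1, it was 1.42% in P301S/EKO, 2.53% in P301S, 1.31% in EKO and 1.58% in WT. These rest on 9, 4, 13 and 10 nuclei. Srebf1 overlaps Rai1 on the opposite strand by 109 bases.

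Outside astrocytes, Srebf1 was above WT in all 8 other classes measured in P301S, and 6 of those passed 1.5-fold. Of the 6, oligodendrocyte-like nuclei (1.55) passed it in 5 of 10 processing alternatives and endothelial-like nuclei (1.75) in 7 of 10. The others passed it in at least 9 of 10. Microglia-like nuclei stood at 69.7 CPM in P301S and 30.9 CPM in WT (2.26, 1.49 to 3.50). CA2-or-CA3-like neurons stood at 23.5 CPM in P301S and 10.8 CPM in WT (2.17, 1.07 to 4.42). Inhibitory-like neurons did not separate, with 20.1 CPM in P301S and 19.8 CPM in WT. In P301S/EKO over P301S, 8 of 9 classes were below 1 and 4 passed 1.5-fold: endothelial-like nuclei (0.460), CA2-or-CA3-like (0.478), subicular-or-cortical-like (0.601) and dentate-granule-like neurons (0.620), each with an interval that includes 1. EKO over WT had no called class for Srebf1 among 9. Transcripts of a reactive astrocyte list were also counted in other classes. In astrocyte-like nuclei the list itself summed to 6363 CPM in P301S and 775 CPM in WT. Its level in other classes therefore does not measure their share of astrocyte RNA. Summed over 12 reactive astrocyte genes, Gfap included, inhibitory-like neurons held 416 CPM in P301S and 39.6 CPM in WT. Dentate-granule-like neurons held 449 CPM and 57.8 CPM. Microglia-like nuclei held 163 CPM of Gfap in P301S/EKO, 337 CPM in P301S, 28.4 CPM in EKO and 27.9 CPM in WT. CA2-or-CA3-like neurons held 86.2 CPM of Gfap in P301S/EKO, 257 CPM in P301S, 8.96 CPM in EKO and 12.04 CPM in WT. The part of astrocyte RNA in these Srebf1 levels was not tested. P301S/EKO over EKO passed 1.5-fold in astrocyte-like nuclei and in microglia-like nuclei, where it stood at 58.4 CPM in P301S/EKO and 31.6 CPM in EKO on 46 and 10 UMIs (1.85, 0.922 to 4.12).

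Srebf2, which encodes the driver of cholesterol synthesis, was lowest in P301S and highest in EKO over all nuclei. There it stood at 59.3 CPM in P301S/EKO, 44.8 CPM in P301S, 70.7 CPM in EKO and 59.6 CPM in WT. All 9 measured classes were below WT in P301S, with 2 past 1.5-fold, and all 9 were above WT in EKO, again with 2 past 1.5-fold. In dentate-granule-like neurons, with few P301S counts, Srebf2 stood at 55.1 CPM in P301S/EKO (64 UMIs), 27.0 CPM in P301S (8), 59.2 CPM in EKO (100) and 55.9 CPM in WT (60). P301S was lowest there, at 0.483 over WT (0.200 to 1.01), and P301S/EKO over P301S was 2.04 (0.976 to 4.93). Oligodendrocyte-like nuclei also passed 1.5-fold in P301S over WT (0.595, 0.290 to 1.13) and in P301S/EKO over EKO (0.562, 0.299 to 1.05). Endothelial-like nuclei did so in EKO over WT (1.79, 0.948 to 3.30) and in P301S/EKO over EKO (0.582, 0.232 to 1.35). In astrocyte-like nuclei Srebf2 stood at 69.9 CPM in P301S/EKO (17 UMIs), 68.3 CPM in P301S (18), 142 CPM in EKO (31) and 82.9 CPM in WT (43). EKO was the highest of the 4, at 1.71 over WT (1.04 to 2.78), and P301S/EKO over EKO was 0.493 (0.256 to 0.919). In subicular-or-cortical-like neurons, its best counted class, P301S held 51.4 CPM and WT 75.7 CPM (0.680, 0.520 to 0.883), which did not reach 1.5-fold. CA1-like neurons held 69.9 CPM in P301S/EKO and 41.1 CPM in P301S (1.70, 1.10 to 2.69).

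Nr1h2, encoding LXRβ, was present in every class and library. It was highest in endothelial-like nuclei of all 4 libraries, with 83.1 CPM in P301S/EKO, 91.5 CPM in P301S, 86.2 CPM in EKO and 81.2 CPM in WT, and these intervals overlapped those of inhibitory-like neurons, the next class. No class was called in P301S over WT or in EKO over WT. Microglia-like nuclei held 45.7 CPM in P301S/EKO and 79.0 CPM in P301S (0.579, 0.386 to 0.850), a ratio that was 0.918 without mixed nuclei. Astrocyte-like nuclei held 37.0 CPM in P301S/EKO on 9 UMIs, against 60.7 CPM in P301S (16 UMIs), with an interval of the ratio from 0.238 to 1.47.

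Nr1h3, encoding LXRα, was near the limit of detection. Over all nuclei it had 20 UMIs in P301S/EKO, 20 in P301S, 9 in EKO and 34 in WT. Endothelial-like nuclei held the highest level in each library, at 15.1 CPM in P301S/EKO, 21.1 CPM in P301S, 18.5 CPM in EKO and 15.8 CPM in WT, on 2, 6, 3 and 7 UMIs. In microglia-like nuclei it had 0 UMIs in P301S/EKO, 1 in P301S, 0 in EKO and 4 in WT. Over all nuclei the EKO over WT ratio was 0.359 (0.151 to 0.763), and the intervals of the other 3 comparisons included 1. Over all neurons P301S/EKO over EKO was 2.74 (1.003 to 8.61), on 15 and 6 UMIs. No class held enough UMIs for a ratio.

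Abca1, the transporter that passes cholesterol and phospholipid to apolipoproteins, had the widest range over genotypes of the 10 genes as a fold over all nuclei, with 14.3 CPM in P301S/EKO, 52.0 CPM in P301S, 9.27 CPM in EKO and 14.2 CPM in WT. In astrocyte-like nuclei, its highest class in all 4 libraries, it stood at 148 CPM in P301S/EKO (36 UMIs), 284 CPM in P301S (75), 59.4 CPM in EKO (13) and 46.3 CPM in WT (24). The P301S over WT ratio was 6.15 (3.84 to 10.2), P301S/EKO over P301S was 0.520 (0.340 to 0.784), and P301S/EKO over EKO was 2.49 (1.29 to 5.12). P301S/EKO thus lay between P301S and both libraries without the tau transgene. The thinned share of astrocyte-like nuclei with an Abca1 UMI was 15.5% in P301S/EKO, 21.5% in P301S, 6.06% in EKO and 5.41% in WT. In dentate-granule-like neurons it was 0.632% in P301S/EKO, 1.90% in P301S, 0.506% in EKO and 0.316% in WT. These rest on 4, 3, 5 and 2 nuclei, and the P301S interval ran from 0.393% to 5.45%. Without mixed nuclei the astrocyte-like levels were 147 CPM in P301S/EKO, 287 CPM in P301S, 61.3 CPM in EKO and 61.8 CPM in WT.

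In microglia-like nuclei Abca1 stood at 33.0 CPM in P301S/EKO (26 UMIs), 86.9 CPM in P301S (121), 34.7 CPM in EKO (11) and 22.9 CPM in WT (23). Here P301S stood alone, and P301S/EKO over EKO was 0.952. P301S over WT was 3.80 (2.42 to 6.21) and P301S/EKO over P301S was 0.3801 (0.239 to 0.584). Without mixed nuclei the levels were 35.0 CPM in P301S/EKO, 107 CPM in P301S, 69.3 CPM in EKO and 27.9 CPM in WT, on 9, 40, 9 and 3 UMIs. Summed over 13 disease-associated microglia genes, the same nuclei held 4346 CPM in P301S/EKO, 23545 CPM in P301S, 2834 CPM in EKO and 3900 CPM in WT. Apoe is among the 13 and is lost in P301S/EKO and EKO, so the order of these sums is in part fixed by genotype. In these nuclei 15 LXR targets and partners, Apoe included, summed to 716 CPM in P301S/EKO and 18970 CPM in P301S. They summed to 628 CPM in EKO and 2914 CPM in WT. Apoe itself counts among the lower genes in both comparisons given next. By gene, 8 of 13 measured were lower and 0 higher in P301S/EKO over P301S, beside 19.1% and 6.86% of all genes. In EKO over WT 4 of 8 were higher and 2 lower, beside 12.1% and 18.6% of all genes. The part of that state in the Abca1 levels was not tested.

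Endothelial-like nuclei held 52.9 CPM of Abca1 in P301S/EKO, 120 CPM in P301S, 43.1 CPM in EKO and 29.3 CPM in WT, with P301S over WT at 4.09 (2.10 to 8.43). Among neurons, inhibitory-like nuclei held 7.64 CPM in P301S/EKO, 37.1 CPM in P301S, 12.5 CPM in EKO and 9.08 CPM in WT, a P301S over WT ratio of 4.09 (2.09 to 8.73). CA1-like neurons did not pass 1.5-fold in P301S over WT, with 24.1 CPM in P301S and 18.9 CPM in WT. In all, 6 of 7 measured classes were higher in P301S than in WT and 7 of 7 were lower in P301S/EKO than in P301S. EKO over WT was mixed. Subicular-or-cortical-like neurons (0.345, 0.115 to 0.867) and CA1-like neurons (0.531, 0.243 to 1.07) were lower. Microglia-like nuclei were higher (1.52, 0.667 to 3.24). Of the 7 classes measured in EKO over WT, 4 lay above 1. All nuclei together, which also differ in class shares, gave 0.653 (0.496 to 0.855). The astrocyte transcript Gfap was also higher in neurons of both libraries with the tau transgene: subicular-or-cortical-like neurons held 126 CPM of Gfap in P301S/EKO, 273 CPM in P301S, 16.4 CPM in EKO and 21.0 CPM in WT. Abca1 UMIs per Gfap UMI there were 0.0545 in P301S/EKO, 0.0839 in P301S, 0.194 in EKO and 0.436 in WT, and in astrocyte-like nuclei 0.0603 in P301S/EKO, 0.0732 in P301S, 0.065 in EKO and 0.0913 in WT. In inhibitory-like neurons they were 0.0761 in P301S/EKO, 0.148 in P301S, 1 in EKO and 0.478 in WT. Gfap is the divisor and was itself higher in both libraries with the tau transgene, so these ratios cannot tell the source of Abca1. Gfap in endothelial-like nuclei was 310 CPM in P301S/EKO, 1095 CPM in P301S, 203 CPM in EKO and 126 CPM in WT. The part of astrocyte RNA in these Abca1 levels was not tested.

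**Figure D3:**
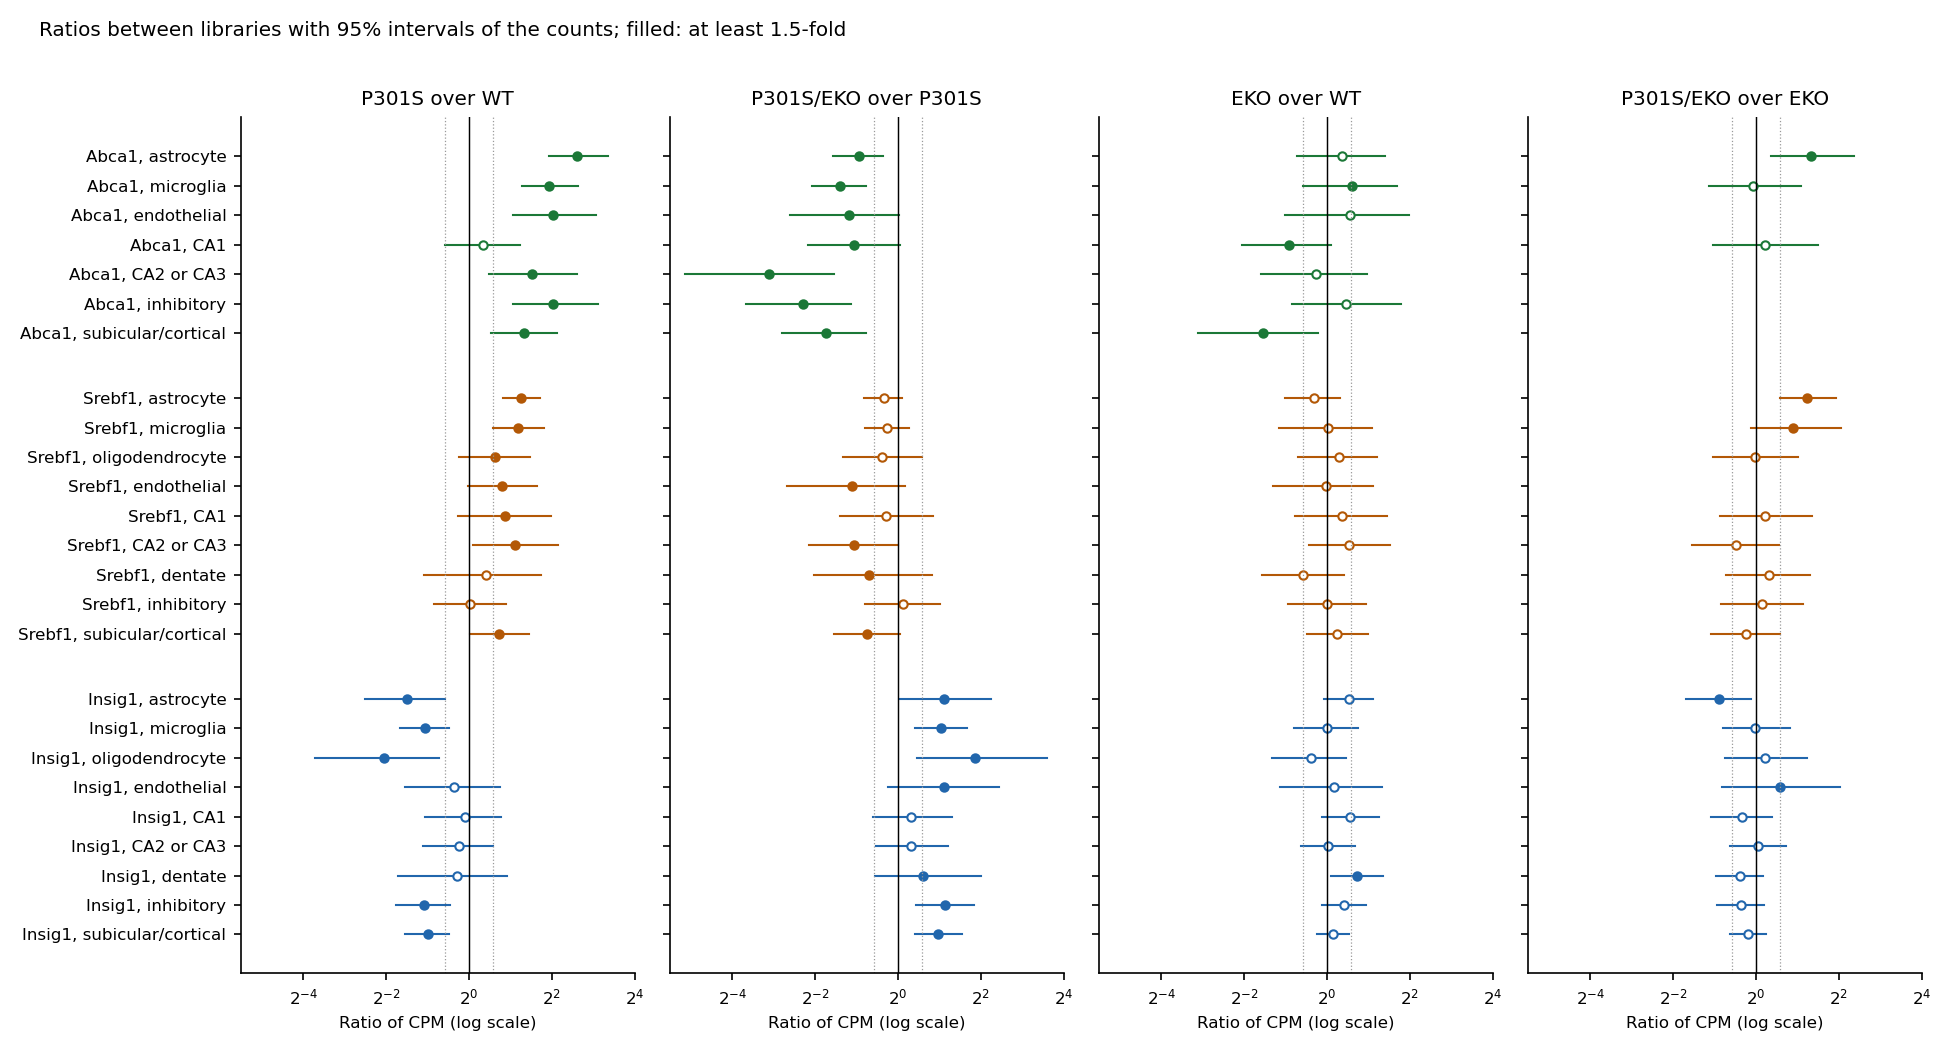
Ratio of CPM on a log scale (horizontal axis) of Abca1, Srebf1 and Insig1 in each measured class (rows) for 4 comparisons, with 95% intervals of the counts. Filled points are at least 1.5-fold (dotted lines). Abca1 lies right of 1 in P301S over WT and left of 1 in P301S/EKO over P301S in all 7 classes measured, and Insig1 lies on the opposite side in all 9.

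Abcg1, which moves sterol toward lipid particles, was barely counted in astrocyte-like nuclei, with 3 UMIs in P301S/EKO, 5 in P301S, 4 in EKO and 9 in WT. It was highest in microglia-like nuclei of 3 libraries, at 50.8 CPM in P301S/EKO, 48.8 CPM in P301S, 50.5 CPM in EKO and 40.8 CPM in WT. No comparison called it there. CA1-like neurons held 29.1 CPM in P301S/EKO, 49.6 CPM in P301S, 26.5 CPM in EKO and 20.1 CPM in WT. P301S was the highest library, at 2.47 over WT (1.51 to 4.05), and P301S/EKO over P301S was 0.587 (0.357 to 0.965). Oligodendrocyte-like nuclei held 64.1 CPM in P301S and 26.6 CPM in WT on 22 and 24 UMIs (2.41, 1.29 to 4.49), a ratio that was 6.22 without mixed nuclei on 10 and 4 UMIs. Dentate-granule-like neurons were lower, with 7 UMIs in P301S and 42 in WT (0.604, 0.229 to 1.36).

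Pltp, a secreted phospholipid transfer protein, was highest in endothelial-like nuclei of all 4 libraries, a class that also held pericyte and smooth muscle markers. Endothelial-like nuclei held 1678 CPM in P301S/EKO (222 UMIs), 1345 CPM in P301S (382), 966 CPM in EKO (157) and 1330 CPM in WT (590), apart from the next class in all 4 libraries. Of endothelial-like nuclei thinned to 1000 UMIs, 51.9% had a Pltp UMI in P301S/EKO, 45.0% in P301S, 50% in EKO and 47.5% in WT. EKO had the lowest level, and P301S/EKO over EKO was 1.74 (1.41 to 2.14), which was 2.38 in nuclei of at least 1100 UMIs and 1.32 with equal weight per nucleus. EKO over WT was 0.727 (0.605 to 0.868), within 1.5-fold. All 7 measured classes were below 1 in EKO over WT, and 3 neuronal classes passed 1.5-fold: CA2-or-CA3-like (0.236, 4 EKO and 21 WT UMIs), dentate-granule-like (0.408, 9 and 14 UMIs) and subicular-or-cortical-like neurons (0.476, 10 and 29 UMIs). Over all nuclei that ratio was 0.388 (0.332 to 0.453), with 121 endothelial-like nuclei in EKO and 163 in WT. Clustering at resolution 2 split off a cluster of 158 nuclei holding both fibroblast and pericyte markers, which held 240 CPM in P301S/EKO, 96.3 CPM in P301S, 291 CPM in EKO and 76.3 CPM in WT, and a fibroblast-like cluster of 58 nuclei with 0 to 2 Pltp UMIs per library. The remaining endothelial-like cluster held 2622 CPM in P301S/EKO, 2201 CPM in P301S, 1515 CPM in EKO and 1682 CPM in WT. It was not endothelial alone. Over all its nuclei the pericyte or smooth muscle markers Rgs5, Vtn and Acta2 stood at 1661, 1556 and 1009 CPM, beside 4593 CPM of the endothelial marker Cldn5. Without mixed nuclei the endothelial-like class held 2035 CPM in P301S/EKO, 1538 CPM in P301S, 1235 CPM in EKO and 1863 CPM in WT, so P301S and WT changed places. Pltp overlaps Ctsa on the opposite strand by 1515 bases.

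In astrocyte-like nuclei Pltp stood at 41.1 CPM in P301S/EKO (10 UMIs), 110 CPM in P301S (29), 50.3 CPM in EKO (11) and 55.9 CPM in WT (29). P301S was again the highest, at 1.97 over WT (1.13 to 3.41), and P301S/EKO over P301S was 0.374 (0.163 to 0.789). Unlike Abca1 and Srebf1, P301S/EKO was not above EKO, with a ratio within 1.5-fold on 21 UMIs. The largest P301S over WT ratio of Pltp was in CA1-like neurons, at 3.24 on 14 P301S and 11 WT UMIs. In P301S/EKO over P301S, 4 of 5 measured classes were lower, and the endothelial-like class, at 1.25, was within 1.5-fold.

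Other genes of the pathway were read from lists chosen by textbook role. The SREBP2 list holds 23 genes of cholesterol synthesis and uptake. In astrocyte-like nuclei its summed level was 1554 CPM in P301S/EKO, 607 CPM in P301S, 2236 CPM in EKO and 1428 CPM in WT. EKO was the highest library and P301S the lowest, as for Insig1. In P301S over WT 11 of 12 measured genes were lower and 0 higher, with a median log2 ratio of -1.09, beside 0.11 for all genes and 18.3% of all genes lower in that class. Fdft1 and Dhcr7, enzymes of the squalene and sterol steps, were at 0.25 each. In P301S/EKO over P301S 8 of 9 were higher, among them Fdft1 at 4.77 and Idi1, an isomerase of the mevalonate pathway, at 3.25, with 13.1% of all genes higher. In EKO over WT 9 of 15 were higher, among them Idi1 at 3.07 and Msmo1, a sterol oxidase, at 2.06, with 15.4% of all genes higher. In P301S/EKO over EKO 6 of 13 were lower, among them Fdps at 0.41 and Sqle at 0.42, with 15.8% of all genes lower. Neuronal RNA in astrocyte-like nuclei differed too: 8 neuronal transcripts summed to 4917 CPM in P301S/EKO, 5555 CPM in P301S, 5501 CPM in EKO and 12016 CPM in WT, and their part in the list's levels was not tested. In subicular-or-cortical-like neurons 10 of 21 measured genes of the list were lower in P301S than in WT (3.77% of all genes lower), and 10 of 21 were at least 1.5-fold up in P301S/EKO over P301S (5.09% of all genes).

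**Figure D4:**
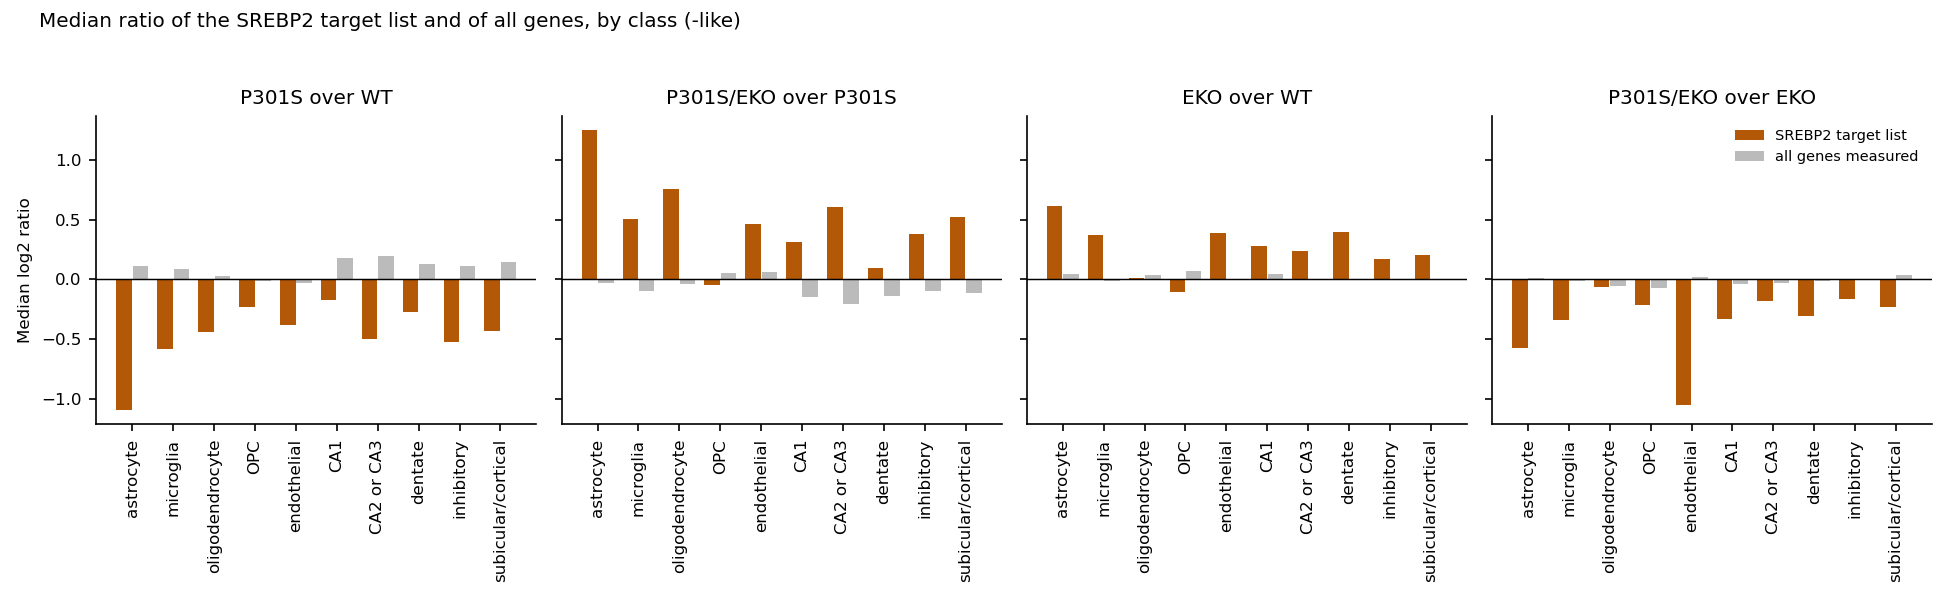
Median log2 ratio (vertical axis) of the measured genes of the SREBP2 target list (orange) and of all measured genes (grey) in 10 classes (horizontal axis) for 4 comparisons. In astrocyte-like nuclei the list's median is -1.09 in P301S over WT and 1.25 in P301S/EKO over P301S; few genes were measured in some bars, 1 to 4 of the list in oligodendrocyte-precursor-like nuclei.

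The SREBP1 list, 16 fatty acid synthesis genes, differed between classes. In astrocyte-like nuclei of P301S over WT 3 of 12 measured genes were higher and 3 lower, with the stearoyl-CoA desaturase gene Scd1 at 2.95 and the acetyl-CoA synthetase gene Acss2 at 0.42 (23.1% of all genes higher, 18.3% lower). In EKO over WT 5 of 12 were higher and 0 lower, Fasn being at 2.12 (15.4% of all genes higher, 17.5% lower). In P301S/EKO over P301S 5 of 11 were higher and 1 lower (13.1% and 17.6% of all genes). In endothelial-like nuclei 4 of 8 were higher and 0 lower in P301S over WT (13.5% and 17.7% of all genes), and 0 of 4 were higher and 2 lower in P301S/EKO over P301S (16.2% and 15.0% of all genes).

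Of 15 other LXR targets and partners, 12 were measured in microglia-like nuclei of P301S over WT, and 4 were higher and 0 lower: Apoe at 7.98, the lipoprotein lipase gene Lpl at 2.68 and the ubiquitin ligase gene Mylip at 2.07 were the top 3 (19.3% of all genes higher). Apoe and Lpl are also on the disease-associated microglia list. In astrocyte-like nuclei 1 of 7 was higher, Lpcat3 at 1.65, and 1 lower, the corepressor gene Ncor1 at 0.61, beside 23.1% of all genes higher and 18.3% lower. In microglia-like nuclei of P301S/EKO over P301S 0 of 12 were higher and 3 lower, with Lpl at 0.49, beside 19.1% of all genes lower in that class. Apoe is on this list and is lost in P301S/EKO mice, so its place among the lower genes was fixed by genotype.

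Of 11 genes for SREBP cleavage and INSIG turnover found in the files, 8 were measured in astrocyte-like nuclei of P301S over WT and 3 were higher, among them Rnf145 at 2.36, which encodes a ligase that acts on sterol regulators, and Vcp at 1.5, the ATPase that extracts proteins from the endoplasmic reticulum. None was lower there, beside 23.1% of all genes higher and 18.3% lower. Of 12 oxysterol and sterol handling genes, 11 were measured in microglia-like nuclei of P301S over WT, with 5 higher and 1 lower (19.3% and 8.12% of all genes). Ch25h, encoding the enzyme that makes 25-hydroxycholesterol, had 22 UMIs in P301S and 0 in WT. Npc2, which moves cholesterol out of lysosomes, stood at 2.26, and Cyp7b1, which removes oxysterols, at 0.38. In astrocyte-like nuclei Cyp7b1 was at 1.69 and Npc1 at 0.50 in P301S over WT, and Npc1 was at 2.94 in P301S/EKO over P301S.

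Likeness of pattern was measured as Pearson's r of log2(CPM + 1) over 40 points, 10 classes in 4 libraries, among 10947 genes. The points share libraries and class depth, so r is a description. Srebf1 was most like Kcnj10 (0.94), an astrocyte potassium channel gene, then Cd63 (0.93) and Cd81 (0.92). Abca1 was most like Cox6b2 and Cd63 (0.86 each) and Kcnj10 (0.83). Insig1 was most like Dnajc3 (0.74), Paqr7 (0.72) and Sc5d (0.70), the last a gene of the SREBP2 list. Pltp was most like the endothelial marker Ly6c1 (0.96), then Igfbp7 and Crip1 (0.95 each). Srebf2 was closest to Arl3 (0.79), Scap to Tbce (0.85), Insig2 to Tmem230 (0.76), Nr1h2 to Ralb (0.74), Nr1h3 to Nbl1 (0.80) and Abcg1 to Pak7 (0.75). Among the 10 genes, Abca1 and Srebf1 were the most alike pair (0.81), and Scap and Pltp the most opposed (-0.71).

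On GRCm38 the genes lie apart from each other: Insig2 on chromosome 1 (121304353 to 121332589), Nr1h3 (91184061 to 91202834) and Pltp (164839518 to 164857711) on 2, Abca1 on 4 (53030787 to 53159895), Insig1 on 5 (28071363 to 28078662), Nr1h2 on 7 (44549616 to 44553951), Scap on 9 (110333288 to 110384950), Srebf1 on 11 (60199089 to 60222581), Srebf2 on 15 (82147181 to 82205379) and Abcg1 on 17 (31057675 to 31117988). The 3′ counts do not say which exon or transcript a UMI came from.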

How the data were processed

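The authors deposited raw UMI counts, whole numbers, for each gene in each barcode. Per the labels' protocols, nuclei of frozen, pooled hippocampi were purified over a sucrose cushion and read with 10x 3′ chemistry; the submitters' processing notes name Cell Ranger, Seurat and mm10. Their versions, and whether intron reads were counted, are not given in the labels. Groups came from the labels.

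Nuclei were clustered with scanpy 1.11.5 (igraph 0.11.9, scikit-learn 1.9.0), sums and intervals made with scipy 1.17.1, pandas 2.3.3 and numpy 2.4.6 under Python 3.11.15, and plots drawn with matplotlib 3.10.9. A barcode was dropped below 200 genes or above 5% mitochondrial UMIs. Scrublet's own threshold called 0 or 1 barcode per library, so the top scores were removed at 0.8% per 1000 barcodes (302 in P301S/EKO, 74 in P301S, 261 in EKO and 271 in WT). All nuclei were clustered together (2000 variable genes, 30 components, 15 neighbours, Leiden resolution 1) after leaving out mitochondrial and sex-linked genes, Mapt, Prnp, Apoe and 87 sterol genes, the 10 described here included. A cluster was named from at least 3 of its set's markers, as "X-like", since names were rebuilt here; 2 of 18 clusters stayed unnamed, and choroid-plexus-like nuclei were too few to compare.

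UMIs were summed per class and library and scaled to CPM. Intervals are exact Poisson (levels), exact conditional binomial (ratios) and Clopper-Pearson (shares), and cover counting error only. The ratio step was tested on simulated data. Calls use 1.5-fold, 20 UMIs and 40 nuclei. All 10 genes were described, with called pairs, though not every called pair is named. Also given were up to 3 genes per list, class and comparison with the largest ratios, and the 3 most alike genes. Where a list's text gives fewer or other genes of it, they were picked after values were seen. The members and lists were chosen with earlier results of these data known. Alternatives were median-of-ratios scaling, 500 genes or 1100 UMIs per nucleus, doublets kept, resolution 2, sterol genes in the clustering, equal weight per nucleus, free RNA subtracted, mixed nuclei left out, no minimum above 1 UMI and, added after seeing the data, nuclei with a Gh, Prl or Cga UMI left out. Some genes of the lists are counted but not reported by name here.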

Additional observations from a re-analysis of the deposited data

Results flagged for a closer look

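Scap in oligodendrocyte-precursor-like nuclei had a ratio of 0.539 in P301S over WT and of 1.56 in P301S/EKO over EKO, opposite sides of 1 with and without Apoe. The same class gave 1.58 in P301S/EKO over P301S and 0.545 in EKO over WT. All 4 intervals include 1, on 7 to 21 UMIs per library, and the difference between the ratios was not tested.

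Abca1 in microglia-like nuclei had a ratio of 0.3801 in P301S/EKO over P301S and of 1.52 in EKO over WT, opposite directions of the loss of Apoe with and without the tau transgene. The interval of the second, 0.667 to 3.24, includes 1, and the difference was not tested. In the same EKO over WT comparison subicular-or-cortical-like neurons (0.345) and CA1-like neurons (0.531) were lower.

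The pituitary hormone transcripts Gh, at 397.7 CPM in 288 nuclei, and Prl, at 167.7 CPM in 155 nuclei, were found in the EKO library, above 0 to 6 UMIs in each other library. They belong to no comparison of the 10 genes. Leaving out nuclei with such a UMI kept all 90 called ratios on their side of 1.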

How the results depend on the processing

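The 90 called ratios were recomputed under 10 alternatives, giving 889 values, of which 872 stayed within the counting interval of the ratio, 16 moved outside it and 1 changed direction: Insig1 in microglia-like nuclei of P301S over WT was 2.86 with mixed nuclei left out. Staying within the counting interval is not the same as passing 1.5-fold. Abcg1 in CA2-or-CA3-like neurons of P301S over WT passed it in 6 of 10 alternatives (1.31 to 1.53). Insig2 in subicular-or-cortical-like neurons of EKO over WT did so in 6 of 10 (0.585 to 0.703). Alternatives that left a library at 0 gave no value. With no minimum above 1 UMI, 19 pairs were lower in P301S over WT, 19 higher and 31 lower in P301S/EKO over P301S, 21 lower in EKO over WT, and 16 higher and 15 lower in P301S/EKO over EKO. With free RNA subtracted, 17 pairs were lower in EKO over WT and 10 in P301S/EKO over EKO. In EKO over WT, 11 pairs were higher with equal weight per nucleus and 10 with Gh, Prl or Cga nuclei left out, an alternative chosen after seeing the data. The cause was not tested, except that a lower minimum adds pairs by its construction. The pairs measured and the shares over all genes under these alternatives are not given here. The counts are therefore not set against a background. Abca1 in astrocyte-like nuclei ranged over 4.64 to 7.00 in P301S over WT and 0.384 to 0.722 in P301S/EKO over P301S, where 9 of 10 alternatives passed 1.5-fold; Srebf1 ranged over 1.88 to 2.46 and Insig1 over 0.279 to 0.366 in P301S over WT. No paired analysis was possible because each genotype has 1 library. Depth limits Nr1h3 and the precursor-like class most.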
